A study of Homo sapiens with 2 samples.

Results

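Upstream of IVNS1ABP, on the long arm of chromosome 1, 4 strong FOXO3 peaks were called within 49.9 kb of one another. They are the peaks whose summit lies in a 180 kb window of hg19, which reaches from 46.5 kb on the gene side of the IVNS1ABP 5′ end to 133.5 kb upstream of it, and they are 4 of the 9717 peaks in the deposited list. The window was chosen by the significance and the spacing of its peaks in this same list, so their number, strength and spacing are descriptions and were not tested. Flanks of 500 kb on each side served as comparison and held 6 peaks.

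The study mapped FOXO3 in U87MG, an established human glioblastoma cell line, by CETCh-seq, in which genome editing adds a tag (here FLAG) to the endogenous factor and the tag is immunoprecipitated. The series holds 2 libraries, 1 FLAG immunoprecipitation and 1 input, and the peak list is that of the FLAG library. Both are labelled wild type, and in both the cells received LY294002, which blocks phosphoinositide 3-kinase. The labels do not say which clone was used or whether the input came from tagged cells, no library without LY294002 or without the tag was analysed here, and with 1 ChIP library every interval covers counting error only.

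FOXO3 is a forkhead transcription factor that the kinase AKT phosphorylates when phosphoinositide 3-kinase is active, which keeps it in the cytoplasm. When the pathway is inhibited it enters the nucleus and binds DNA, often at enhancers that lie far from the genes they act on. IVNS1ABP encodes influenza virus NS1A binding protein, a BTB-kelch protein that was found as a cellular partner of the NS1 protein of influenza A virus. It has been linked to pre-mRNA splicing and to the actin cytoskeleton. A distance to a gene does not show that a peak acts on that gene.

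IVNS1ABP lies on the minus strand from 185265522 to 185286461 (hg19), so that higher coordinates are upstream of it. The peaks are named here by the distance of their summit from this 5′ end. In the order of RefSeq genes (GRCh38.p14), the next protein-coding gene on the 3′ side of IVNS1ABP is SWT1 and the next on its 5′ side is HMCN1, which encodes the extracellular matrix protein hemicentin 1. RefSeq places 7 other genes between IVNS1ABP and HMCN1, of which 4 are long non-coding RNAs (among them CBSLR) and 3 are pseudogenes. The positions of these neighbours in hg19 were not used here, so whether a peak lies inside one of them, in an exon or in an intron, was not analysed. No summit was called within IVNS1ABP itself.

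The promoter of IVNS1ABP is shown because the distances refer to the 5′ end of this gene and because no peak was called there. These are the 250 bases before the RefSeq start at chr1:185317244-185317493 of GRCh38.p14, minus strand, a different build from that of the peaks. Whether this RefSeq start is the same base as the hg19 5′ end used for the distances was not checked. Capitals mark the part that pairs with the first 42 bases downstream of the CBSLR start, a gene read in the opposite direction on the other strand, from a start 209 bases away from that of IVNS1ABP.
IVNS1ABP promoter: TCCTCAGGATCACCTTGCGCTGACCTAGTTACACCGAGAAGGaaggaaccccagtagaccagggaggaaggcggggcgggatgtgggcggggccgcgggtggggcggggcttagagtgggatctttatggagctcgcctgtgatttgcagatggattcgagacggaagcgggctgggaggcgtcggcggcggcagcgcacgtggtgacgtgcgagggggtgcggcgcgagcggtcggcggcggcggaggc
The share of G and C was 68.4%, against a median of 58.0% over the same 250 bases of 35116 RefSeq promoters. The core forkhead letters GTAAACA were not found on either strand of it, and they occur in 2.98% of those promoters. The shorter TAAACA, which GTAAACA contains, was not found either and occurs in 10.99% of them. The sequences under the 4 peaks were not analysed here.

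The 4 summits lay 52.7, 57.0, 83.9 and 102.6 kb upstream of IVNS1ABP. The 52.7-kb peak spans 185338797 to 185339334, with its summit at 185339163. The 57.0-kb peak spans 185343225 to 185343726, with its summit at 185343470. The first pair is thus only 4.31 kb apart. The 83.9-kb peak spans 185370225 to 185370502 and has its summit at 185370367, 26.9 kb further upstream. The 102.6-kb peak spans 185388724 to 185389239 and has its summit at 185389069, another 18.7 kb away. The arrangement is 1 close pair followed by 2 more widely spaced peaks.

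**Figure D1:**
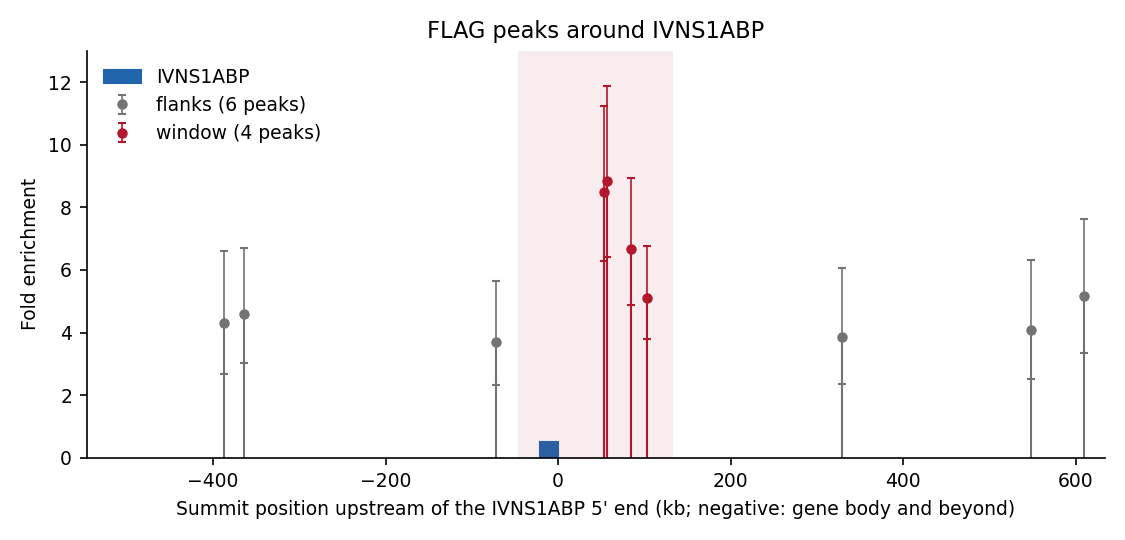
Fold enrichment (vertical axis) of the 4 FLAG peaks of the window (red, window shaded) and the 6 peaks of its flanks (grey) against distance from the IVNS1ABP 5′ end in kb (horizontal axis, positive upstream). Bars are 95% Poisson intervals of the pileup, and the gene is the blue box. The 4 red peaks lie between 52.7 and 102.6 kb, and none of the peaks falls on the gene.

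Fold enrichment is the ratio of the ChIP tags piled up at the summit to the background set by the authors' peak caller. Before the ratio is taken, 1 is added to both. The fold was higher in the nearer pair than in the farther peaks, although all 4 intervals overlapped. It was 8.49 at the 52.7-kb peak, with a 95% Poisson interval (exact) of 6.28 to 11.2. The 57.0-kb peak had the highest fold of the run, 8.83 (6.42 to 11.9). The 83.9-kb peak had a fold of 6.68 (4.88 to 8.95). The 102.6-kb peak had the lowest, 5.12 (3.79 to 6.77). The last interval overlaps those of the first pair only at its upper end. Overlap is not a test of a difference, and these intervals leave out the error of the background. The order of the folds was thus not tested. These folds and the significances below are the authors' values.

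The −log10 q-value, the caller's significance after adjustment, fell in genomic order, from 26.5 and 24.7 in the pair to 19.6 at the 83.9-kb peak and 16.2 at the 102.6-kb peak. All 4 thus exceed 10, the value from which a peak is called strong here. On the autosomes and chromosome X, which hold 9670 peaks, 25.3% reached that value and 22.1% reached a fold of at least 5. The run was chosen for such values, so nothing is read from 4 of 4 against these shares. By fold the 57.0-kb peak ranked 354 and the 52.7-kb peak 393 of the 9670, the 83.9-kb peak 873 and the 102.6-kb peak 2011. Among the 2451 strong peaks, 85.6% had a lower fold than the 57.0-kb peak and 26.9% a lower fold than the 102.6-kb peak. The folds of the run thus range from below to above the median strong peak, 6.002, and far below the highest fold in the list, 40.3.

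The ChIP signal itself was nearly level along the run. Solving the deposited fold and p-value for the tags behind them gave a pileup of 47 tags at the 52.7-kb summit (95% Poisson interval 34.5 to 62.5) and of 42 tags at the 57.0-kb summit (30.3 to 56.8). It was 43 tags at the 83.9-kb summit (31.1 to 57.9) and again 47 tags at the 102.6-kb summit. The highest pileup was 1.12 times the lowest, and each value lies within the intervals of the others. The strongest and the weakest significance of the run were thus reached with the same number of ChIP tags.

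The background differed more, and in an order opposite to that of the folds. It was 3.87 tags at the 57.0-kb summit and 4.66 at the 52.7-kb summit, close to the lowest background in the list, 3.65 tags, which is taken as the genome-wide level. It was 5.59 tags at the 83.9-kb summit and 8.38 tags at the 102.6-kb summit, 2.29 times the genome-wide level. From lowest to highest the background changed 2.17-fold along the run and the fold enrichment 1.73-fold. With the genome-wide level in place of the local background, the 4 folds would be 10.3, 9.24, 9.46 and 10.3 in order of distance, a narrower range in which the 102.6-kb peak equals the 52.7-kb peak.

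**Figure D2:**
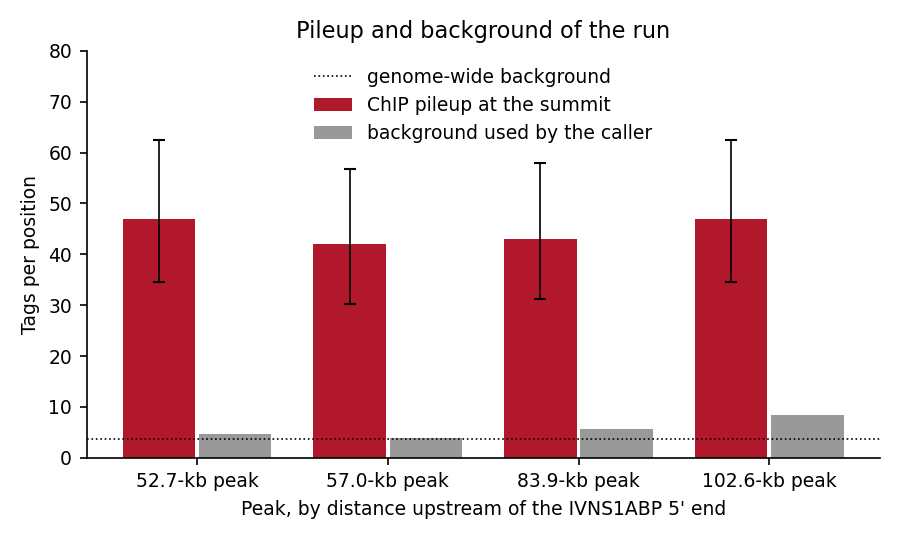
Tags per position (vertical axis) at the summits of the 4 peaks of the run (horizontal axis): ChIP pileup (red, bars are 95% Poisson intervals), background used by the caller (grey) and the genome-wide background of 3.65 tags (dotted). The pileups lie between 42 and 47 tags, whereas the background runs from 3.87 to 8.38 tags.

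The backgrounds differ in the control tags behind them, which are few at the 52.7-kb peak, many at the 57.0-kb peak and undecided at the others. The scale of the control, 0.931 ChIP tags per control tag, was chosen here to make as many backgrounds whole as possible. A fragment length of 150 bp, to which tags are extended, was assumed. Of the 7774 backgrounds above the genome-wide level and under 20 tags, 53.8% were whole multiples of this scale over the fragment length. The rest were whole in 10 kb windows. The control counts that follow depend on these settings. The 52.7-kb background equals 5 control tags over the fragment length. The 57.0-kb background equals 277 control tags in the 10 kb around its summit and no whole number in the shorter windows. The 83.9-kb background equals 6 control tags over the fragment length, and that of the 102.6-kb peak equals 9. These last values are also whole in 1 kb windows (40 and 60 tags) and in 10 kb windows (400 and 600 tags). For fragment counts of 6 and 9 this follows from the window lengths, so it is no separate evidence for the longer windows. The window behind them cannot be told from the values alone.

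When the counting error of the control is added, the ratio of ChIP to background is known less well. The ratios given here leave out the 1 that the fold adds to both, so they are higher than the folds. For the 52.7-kb peak the ratio of pileup to background was 10.1, with an exact 95% interval of 4.03 to 32.5. For the 57.0-kb peak, with its larger control count, it was 10.9 (7.65 to 15.1). For the 83.9-kb peak it was 7.698, with an interval of 3.26 to 22.1 if 6 tags lie behind it and 5.48 to 10.6 if 400 do. For the 102.6-kb peak it was 5.61, with an interval of 2.72 to 13.02 with 9 tags and 4.08 to 7.55 with 600. The caller takes the highest of several windows as background, so these intervals do not include the effect of that choice. Among the 4, the 57.0-kb peak is the one whose control count is both large and unambiguous.

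The pileups can be set beside the smallest that the caller would have kept at each background. From the smallest −log10 p in the list, a summit needed 15 tags at the 52.7-kb background, 13 at the 57.0-kb, 17 at the 83.9-kb and 21 at the 102.6-kb background. The observed pileups were 3.13, 3.23, 2.53 and 2.24 times these numbers. The run was chosen for its significance, so this margin follows from the choice and is given only as its size in tags.

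In shape, 3 peaks were alike and 1 was narrow. The 52.7-kb, 57.0-kb and 102.6-kb peaks were 538, 502 and 516 bp wide. The 83.9-kb peak was 278 bp wide, although its pileup was 43 tags. Strong peaks with pileups of 42 to 47 tags (346 peaks) had a median width of 357 bp, with quartiles of 277 and 450 bp. The 3 wide peaks thus lie above the upper quartile and the narrow one at the lower quartile. The summit lay near the middle of the interval in the 57.0-kb and 83.9-kb peaks, at 48.8% and 51.1% of the width from the lower coordinate. It lay towards the side away from IVNS1ABP in the 52.7-kb and 102.6-kb peaks, at 68.0% and 66.9%.

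The flanks contained only weaker peaks. Their 6 peaks had folds from 3.71 to 5.16 and pileups from 17 to 25 tags, so their pileups did not overlap those of the run. Their highest −log10 q was 8.01, against a lowest value of 16.2 in the run, and none was strong. The run was chosen as strong, and no strong peak in the list had fewer than 26 tags. The separation in pileup and in significance thus follows from the choice. The flank peak of highest fold (5.16, interval 3.35 to 7.63) lay 609 kb upstream of IVNS1ABP, from 185895823 to 185896042. The next lay 364 kb on the other side, from 184922716 to 184922932, and its fold was 4.60 (3.04 to 6.70). The third, from 184898937 to 184899160, had a fold of 4.30 (2.67 to 6.59). By fold alone the 102.6-kb peak, at 5.12, was not above the best flank peak. Its pileup was 47 tags against 23, a difference that goes with its choice as a strong peak.

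The flank peaks also sat on low backgrounds. The background was the genome-wide 3.65 tags in 4 of the 6 and 4.66 tags in the other two. In the run none was at the genome-wide level, and 2 of the 4 were above every flank peak. The 52.7-kb and 57.0-kb peaks thus had higher pileups than every flank peak at backgrounds no higher than the highest in the flanks. At a like background significance rises with the pileup, so this follows from choosing the run by significance.

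The nearest peaks outside the window were distant and weak. Towards and beyond the gene, the next summit lay at 185214786, with a fold of 3.71 from 20 tags. Between it and the run no summit was called over 124 kb, a stretch that holds the whole of IVNS1ABP with 50.7 kb free on its 3′ side and 52.7 kb free on its 5′ side. Of all distances between neighbouring summits, 54.9% were shorter than this, so a stretch of this length without a peak is common. At the genome-wide background a summit of 13 tags is the smallest that could be called, and a higher local background raises that number. The background at the gene is not known. Binding there below the limit that it sets would not have been called at this depth and threshold. On the far side the next summit lay 227 kb above the run, at 185615686, with a fold of 3.87 from 17 tags.

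Strong peaks were much farther away. The next strong summit lay 2973 kb below the run and the next above it 1555 kb away, whereas the median distance between neighbouring strong summits was 536 kb. Of these distances, 90.5% and 78.7% were shorter than those on either side of the run. Within the run, the distances of 4.31, 26.9 and 18.7 kb were longer than 1.77%, 7.21% and 5.52% of all distances between strong neighbours. The stretch between the strong summits on either side is 4578 kb long and holds no strong peak other than those of the run.

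Peak density was 22.2 per Mb in the window, 6 per Mb in the flanks and 3.61 per Mb in the rest of chromosome 1. The ratio of window to flanks was 3.70, a description only, since the window was placed around its peaks. Strong peaks of chromosome 1 outside the window had a density of 0.88 per Mb, and the flanks held none in 1.0 Mb. In tiles of 180 kb laid over chromosomes 1 to 22 and X, at least 4 peaks of any strength were found in 404 of 16142 tiles (2.5%) and at least 4 strong peaks in 5 tiles (0.031%). A count of 4 peaks was thus far more frequent than a count of 4 strong peaks. The tiles of each chromosome start at its first summit, and an incomplete last tile was left out. Apart from that start they were not placed around peaks. These shares describe the list and give no test of the window.

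Of the 2451 strong peaks, 1943 had no other strong summit within 50 kb, 454 had 1 and 50 had 2. Those with 3 numbered 4 (0.163%), and they were the 4 peaks upstream of IVNS1ABP. The run spans 49.9 kb, just under that distance, and the count depends on the definition: it was 18 within 75 kb, 34 within 100 kb and 0 within 25 kb, and 150 when strong meant a −log10 q of at least 5. The 4 peaks were included in each of these counts other than that at 25 kb. With a −log10 q of at least 15 the count at 50 kb was again 4, all from the run. That was fixed in advance, since such peaks are part of the strong ones and the lowest value in the run is 16.2. With a fold of at least 5 the count was also 4, all from the run. The lowest fold of the run is 5.12, so none of its peaks could drop out at that setting. No other set of 4 consecutive strong summits on a chromosome, of 2382 such sets, spanned as little as 49.9 kb. The shortest elsewhere spanned 73.2 kb on chromosome 7 and 80.9 kb on chromosome 20, against a median of 2427 kb. Among peaks of any strength, 642 of 9601 sets of 4 were shorter than the run (6.69%).

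**Figure D3:**
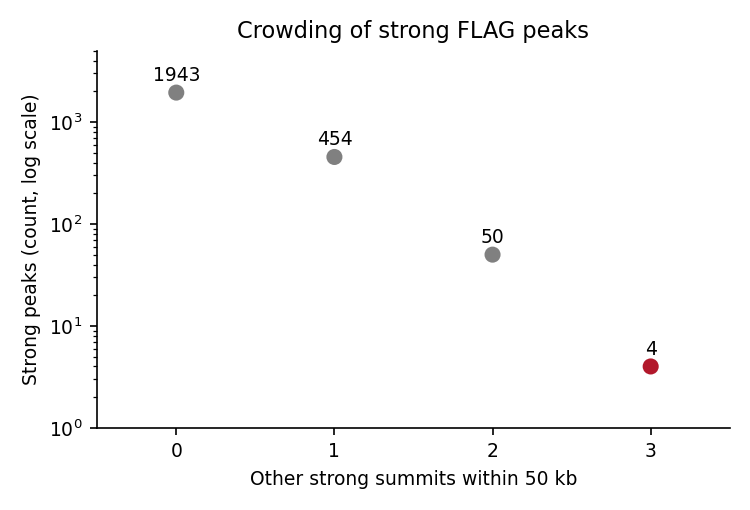
Number of strong peaks (vertical axis, log scale) by the number of other strong summits within 50 kb of them (horizontal axis). The 4 peaks with 3 such neighbours, in red, are those upstream of IVNS1ABP, against 1943 with none.

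The median fold of strong peaks was 6.02 with no strong neighbour, 5.92 with 1 and 5.81 with 2, and their median pileups were 46, 48 and 47.5 tags. Their median backgrounds were 6.56, 7.45 and 7.70 tags. The run had a median fold of 7.58 from a median pileup of 45 tags and a median background of 5.12 tags, which is below all 3 of these medians. Its pileups thus lay at the middle of the strong peaks, and 3 of its 4 backgrounds lay below their median of 6.72 tags.

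The evenness of the pileups was set beside that of other strong neighbours. In the 3 neighbouring pairs of the run, the larger pileup was 1.02 to 1.12 times the smaller. Over all 268 pairs of strong neighbours within 50 kb, which include these 3, the median ratio was 1.34, and 60 pairs (22.4%) had a ratio no larger than 1.12. The backgrounds of the 3 pairs differed 1.20 to 1.5 times and in each pair by more than the pileups, which was so in 135 of the 268 pairs (50.4%). With 3 pairs that share peaks, this is a description of the run and no difference from other pairs was tested.

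One other run of 4 strong peaks, each within 50 kb of the next, was found, also on chromosome 1, between 145098237 and 145196075. Its 4 strong peaks had folds of 4.32, 5.23, 5.25 and 2.96 from 42, 75, 51 and 68 tags. The highest was 5.25 (3.94 to 6.88), close to the lowest of the IVNS1ABP run. Its backgrounds were 8.90 to 22.3 tags, 2.44 to 6.12 times the genome-wide level and all above those of the IVNS1ABP run. A further 8 weaker peaks lay among its strong ones, whereas no weaker peak was called between the 4 upstream of IVNS1ABP. The pileups of the groups overlapped, from 42 to 75 tags against 42 to 47, and the backgrounds did not. Both runs were chosen for their peaks, so this contrast was not tested.

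**Figure D4:**
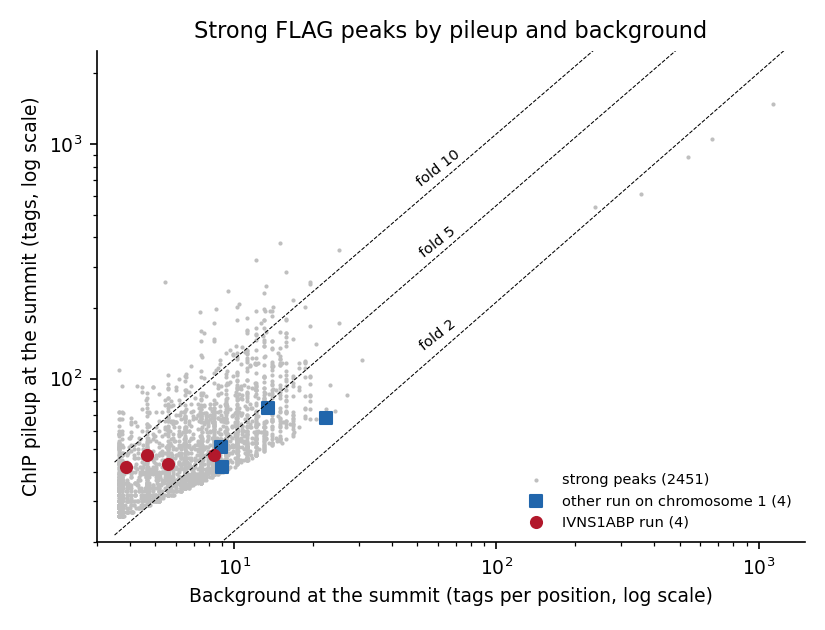
ChIP pileup (vertical axis, log scale) against background (horizontal axis, log scale) at the summits of the 2451 strong peaks (grey), with the IVNS1ABP run (red) and the other run on chromosome 1 (blue). Dashed lines mark folds of 2, 5 and 10; the red points lie at backgrounds of 3.87 to 8.38 tags and the blue ones at 8.90 to 22.3 tags.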

How the data were processed

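The submitters' processing notes name Trimmomatic, HISAT2, MACS2 and the build hg19. For versions, parameters, peak threshold and control library, nothing is given in the sources used here. The deposited list holds, per peak, a start, an end, a summit, a fold enrichment (a ratio), a −log10 p-value, a −log10 q-value and a score, which is 10 times that −log10 q, rounded down. Starts are given here counting from 1. No hg19 sequence or annotation was used, and the position of IVNS1ABP was supplied with the definition of the window.

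Pileup and background were solved from fold = (pileup + 1)/(background + 1) and the upper Poisson tail, in Python 3.11.15 with scipy 1.17.1. The result returned every deposited −log10 p to within 0.001, and the step was tested on simulated data. Intervals are exact Poisson, or conditional binomial for ratios. Ranks, runs, pairs and tiles use chromosomes 1 to 22 and X. Control steps were called whole within 0.001 tags. No test between groups was possible with 1 ChIP library. Window, members and definitions were chosen with earlier results of these data known. All peaks of the window and the 3 flank peaks of highest fold are named. Protein-coding neighbours are named only where adjacent in RefSeq order.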

Additional observations from a re-analysis of the deposited data

How the results depend on the processing

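Of 21 alternative settings over 7 results, 15 left the value within its interval or within 1.5 times. This tally is no measure of robustness, since some settings could not change the value. The window held 4 peaks in all 4 alternatives for that count. That was fixed, since its lowest −log10 q is 16.2, its lowest fold 5.12 and its closest summits 4.31 kb apart. The count of strong neighbours at a −log10 q of at least 15 was fixed as well. Of the density ratios below, 6.15 and 7.41 were counted as within only because the counting interval of the main ratio is wide. The density ratio of 3.70 became 5.56 with flanks of 250 kb, 6.15 against the rest of chromosome 1 and 7.41 with a −log10 q of 5 or more. None of these ratios was read as a test, since the window was placed around its peaks. With 10 or more no flank peak remained and no ratio could be given. With the genome-wide background for every peak, the fold rose from 6.68 to 9.46 at the 83.9-kb peak and from 5.12 to 10.3 at the 102.6-kb peak, because the local background is higher than the genome-wide one. The number of strong peaks with at least 3 strong neighbours, 4 within 50 kb, was 0 within 25 kb, 18 within 75 kb, 34 within 100 kb and 150 with a −log10 q of 5 or more. Distances and thresholds for this count were chosen after seeing the data. The planned motif search at summits and the count of kelch-BTB family genes near peaks were not run, since both need hg19 sequence or gene positions, which were not used here. No paired analysis was possible because the result comes from 1 ChIP library and no test. Depth and the caller's threshold limit the list to summits of 13 tags or more at the genome-wide background, and to higher numbers where the background is higher.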
